A study of Mus musculus with 4 samples.

Results

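Long intergenic noncoding RNAs (lincRNAs) are spliced or single-exon transcripts that lie between protein-coding genes and carry no recognised reading frame. Some stay in the nucleus and organise nuclear bodies or silence a chromosome, some are precursors that are cut to release a microRNA or a small nucleolar RNA (snoRNA), and many have no known role. In myeloid cells such as dendritic cells, which capture antigen and present it to T cells, a few are known to be switched on by microbial and inflammatory signals. The members were the 245 genes that all 3 deposited tables list with the gene type lincRNA, out of 12473 genes listed in all 3 tables.

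Dendritic cells were grown from the bone marrow of C57BL/6 mice aged 4 weeks, in culture with GM-CSF and IL-4, at 10 ng/ml each, over 7 days, which all groups share. They were given CAF.CM that had been incubated first with an antibody to Wnt2 (CAF.CM+Wnt2 Ab), CAF.CM alone (CAF culture medium in the series text), Wnt2, or control medium. Ribosomal RNA was removed from 1 ug of total RNA, so RNA without a poly(A) tail could be read too. Each group has 1 library, so the differences are given without a test and without a replicate check. The question the design puts is what Wnt2 does, what CAF.CM does, and what CAF.CM does once Wnt2 antibody is added. The Wnt2 and CAF.CM comparisons use the same control library, and the last comparison uses the same CAF.CM library as the second.

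The reads assigned to listed genes were 22791494 in CAF.CM+Wnt2 Ab, 25225220 in CAF.CM, 154399768 in Wnt2 and 143071375 in control, so the libraries given CAF.CM were the shallow ones. Of 9 dendritic cell markers, 7 were listed in all 3 tables, and none of the 7 was at 0. Their summed level was 1205 CPM in CAF.CM+Wnt2 Ab, 1263 CPM in CAF.CM, 555 CPM in Wnt2 and 2601 CPM in control. With CAF.CM 2 of the 7 were lower by 2-fold and 0 higher, with a median log2 ratio of −0.018, so the sum does not stand for each gene. With Wnt2 4 were lower and 0 higher, with a median of −1.43. Of all genes listed in all 3 tables, 6.67% were lower with CAF.CM and 2.34% with Wnt2. Of 10 macrophage and monocyte markers, 5 were lower and 0 higher with Wnt2, and 6 lower and 1, Ly6c2, higher with CAF.CM. In CAF.CM+Wnt2 Ab against CAF.CM 4 were lower and 0 higher, beside 3.42% and 0.521% of those genes. Of the same genes, 2.47% were higher with Wnt2 and 5.28% with CAF.CM. The 10 markers summed to 5369 CPM in CAF.CM+Wnt2 Ab, 8253 CPM in CAF.CM, 19769 CPM in Wnt2 and 28318 CPM in control. Of 10 fibroblast markers, 3 were listed in all 3 tables, with sums of 17.2, 15.9, 6.75 and 5.29 CPM in the same order of libraries, of which Dcn made up 13.9, 10.7, 1.01 and 0.509 CPM. Postn, listed in 2 tables, had 0.691 CPM in CAF.CM, 1.22 CPM in Wnt2 and 4.51 CPM in control. Of the 6 fibroblast markers listed for Wnt2 against control, 1 was higher by 2-fold and 1, Postn, was lower. Of all genes listed for that comparison, 2.87% were higher and 2.93% lower. Of the neutrophil markers 1 of 8 was listed in all 3 tables (2.54, 4.11, 11.8 and 4.64 CPM). T cell markers were listed in all 3 tables for 0 of 6 genes and B cell markers for 0 of 5. Marker levels and depth therefore moved with the groups, and their part in the lincRNA results was not tested. In bulk RNA, fewer cells of a type and less RNA per cell cannot be told apart.

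The microRNAs that 3 of the named members are cut to make are printed first, because the largest change among named lincRNAs was in a microRNA precursor. Mature sequences are RefSeq entries on build GRCm38.p6, 5′ to 3′, with the seed (bases 2 to 8), the part that pairs with target mRNAs, in capitals. The microRNA of Mir155hg lies at chr16:84714143-84714165 (+), and among those of Mir17hg miR-17-5p shares its seed with miR-20a-5p and miR-19a-3p with miR-19b-3p, while miR-18a-5p and miR-92a-3p have seeds of their own.
mmu-miR-155-5p: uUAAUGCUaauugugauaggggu
mmu-miR-17-5p: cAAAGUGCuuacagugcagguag
mmu-miR-20a-5p: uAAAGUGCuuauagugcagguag
mmu-miR-19a-3p: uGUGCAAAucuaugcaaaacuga
mmu-miR-19b-3p: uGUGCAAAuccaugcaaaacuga
mmu-miR-18a-5p: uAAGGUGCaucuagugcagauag
mmu-miR-92a-3p: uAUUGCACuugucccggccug
mmu-miR-142a-5p: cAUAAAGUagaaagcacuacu
mmu-miR-142a-3p: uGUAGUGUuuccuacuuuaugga
In GENCODE M21, 23 microRNAs lay in 13 member genes and 9 snoRNAs in 5, and 0 of these small RNAs had a row of its own in the tables. The values below are reads on the host transcripts, not on the small RNAs.

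The named lincRNAs spanned a wide range of levels, with Malat1 far above all others. Malat1, a nuclear speckle RNA at chr19:5795690-5802672 (−), had 37882 CPM in CAF.CM+Wnt2 Ab, 27631 CPM in CAF.CM, 17692 CPM in Wnt2 and 13899 CPM in control. Its level was therefore highest in the libraries given CAF.CM and lowest in control. Ratios are given as log2 values on the deposited scale with 2 reads added, and past 2-fold means 1 or more, or −1 or less. The log2 ratio of Malat1 was 0.35 for Wnt2 against control, 0.99 for CAF.CM against control, with a 95% counting interval of 0.99 to 1.00, and 0.46 for CAF.CM+Wnt2 Ab against CAF.CM. The CAF.CM value passed 2-fold under other scalings of the libraries, at 1.05 with total reads and 1.04 with median-of-ratios size factors.

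Neat1, the RNA scaffold of paraspeckles at chr19:5824708-5845478 (−), had 3449 CPM in CAF.CM+Wnt2 Ab, 2034 CPM in CAF.CM, 1793 CPM in Wnt2 and 1587 CPM in control. Its largest difference was between the libraries given CAF.CM, with a log2 ratio of 0.76 for CAF.CM+Wnt2 Ab against CAF.CM, beside 0.36 for CAF.CM against control and 0.18 for Wnt2 against control. Xist, which coats and silences one X chromosome in female cells, had 566 CPM in CAF.CM+Wnt2 Ab, 507 CPM in CAF.CM, 515 CPM in Wnt2 and 553 CPM in control. Its log2 ratios stayed between −0.12 and 0.16. Ftx and Jpx, regulators of the X-inactivation centre, were low in every library, with Ftx at 4.83, 5.76, 7.37 and 6.34 CPM and Jpx at 1.03, 1.19, 0.944 and 1.01 CPM in CAF.CM+Wnt2 Ab, CAF.CM, Wnt2 and control.

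A list of 13 nuclear-retained RNAs had 9 genes in all 3 tables, 7 of them members, and 0 of the 9 were past 2-fold in any comparison. Of all genes listed in all 3 tables, 2.47% were higher and 2.34% lower by 2-fold with Wnt2, 5.28% and 6.67% with CAF.CM, and 0.521% and 3.42% in CAF.CM+Wnt2 Ab against CAF.CM. Their median log2 ratio was −0.04 with Wnt2 and −0.12 with CAF.CM, and CAF.CM+Wnt2 Ab against CAF.CM gave 0.16. Malat1 was the highest of the list for Wnt2 and for CAF.CM, and Pvt1 the lowest, at −0.85 and −0.52. Between the libraries given CAF.CM Neat1 was highest and Firre lowest, at −0.70. Proteins of the paraspeckles and nuclear speckles, which bind these RNAs, were listed for 18 of 18 genes. Of these, 1 was higher by 2-fold with CAF.CM (Taf15, log2 ratio 1.22) and 0 were past 2-fold in the other 2 comparisons. Srsf2 was the lowest of them for Wnt2 (−0.29) and for CAF.CM (−0.83), Taf15 the highest for Wnt2 (0.62), and Rbm14 and Son the extremes between the libraries given CAF.CM (0.40 and −0.31).

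**Figure D1:**
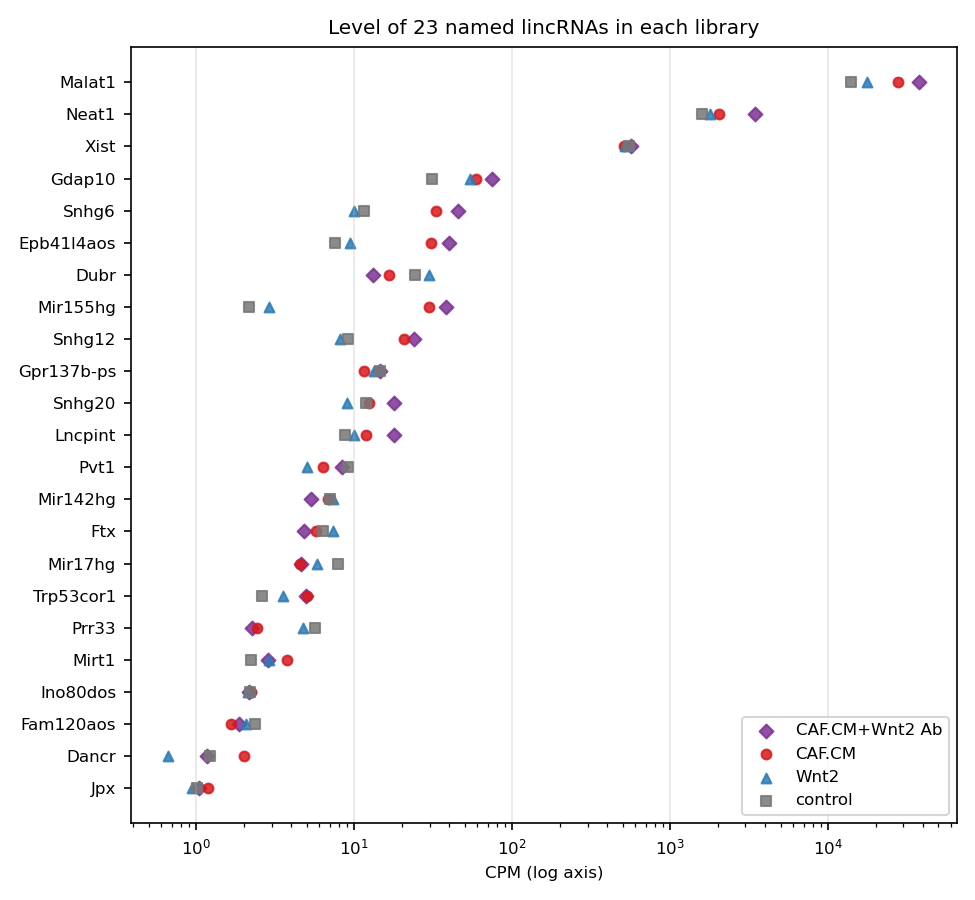
Level of each of the 23 named lincRNAs in CPM on a log axis, 1 point per library, genes ordered by their mean. Malat1 lies between 13899 and 37882 CPM, and Mir155hg shows the widest gap, with both libraries given CAF.CM at 29.8 CPM or more and the Wnt2 and control libraries at 2.90 CPM or less.

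MicroRNA hosts moved in different ways. Mir155hg, the precursor of miR-155, a microRNA induced when myeloid cells are activated, lies at chr16:84703167-84715245 (+). It had 37.9 CPM in CAF.CM+Wnt2 Ab, 29.8 CPM in CAF.CM, 2.90 CPM in Wnt2 and 2.17 CPM in control. Both libraries given CAF.CM stood far above the other libraries. The log2 ratio was 3.76 (95% counting interval 3.59 to 3.97) for CAF.CM against control, 0.42 (0.21 to 0.63) for Wnt2 against control and 0.35 (0.21 to 0.49) for CAF.CM+Wnt2 Ab against CAF.CM. The nearest listed protein-coding gene, Mrpl39, 2331 bases away and coding for a mitochondrial ribosomal protein, had log2 ratios of −0.10, 0.19 and −0.02 in the same order.

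Mir142hg, host of a microRNA of blood cells, had 5.34 CPM in CAF.CM+Wnt2 Ab, 6.80 CPM in CAF.CM, 7.39 CPM in Wnt2 and 6.99 CPM in control. It was alike in the last 3 libraries and lowest in CAF.CM+Wnt2 Ab, where 124 reads were counted. Mir17hg, host of the miR-17-92 cluster that promotes proliferation, had 4.61 CPM in CAF.CM+Wnt2 Ab, 4.53 CPM in CAF.CM, 5.85 CPM in Wnt2 and 7.89 CPM in control. Control was the highest, and the CAF.CM log2 ratio was −0.80 (−1.09 to −0.53). Of the 15 microRNA hosts in the list, 5 were in all 3 tables and 3 were members. With CAF.CM, 1 was higher by 2-fold (Mir155hg) and 1 lower (Dleu2, −1.05, which the files type differently). Of all genes listed in all 3 tables, 5.28% were higher and 6.67% lower. The hosts had a median of −0.28. The medians were −0.14 with Wnt2 and −0.19 between the libraries given CAF.CM, with 0 past 2-fold in either; Mir17hg was lowest for Wnt2 (−0.43) and Dleu2 lowest for CAF.CM+Wnt2 Ab (−0.37). The 10 genes of microRNA processing had 0 past 2-fold in all 3 comparisons; the CAF.CM extremes were Ago3, an Argonaute protein that holds the mature microRNA, at 0.90, and Dgcr8, a partner of Drosha, at −0.67. Their extremes were Ago2 at 0.27 and Xpo5 at −0.22 for Wnt2, and Ago2 at 0.62 and Ago1 at −0.38 for CAF.CM+Wnt2 Ab against CAF.CM.

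Of 16 RNAs on the snoRNA host list, 5 were higher by 2-fold with CAF.CM, and others lay near or below 0. The hosts carry snoRNAs, which guide the chemical modification of ribosomal RNA, inside their introns. Snhg6, at chr1:9941959-9944118 (−), had 45.7 CPM in CAF.CM+Wnt2 Ab, 33.1 CPM in CAF.CM, 10.0 CPM in Wnt2 and 11.5 CPM in control. Epb41l4aos, on chromosome 18, had 39.8 CPM in CAF.CM+Wnt2 Ab, 30.6 CPM in CAF.CM, 9.38 CPM in Wnt2 and 7.54 CPM in control. In both genes the libraries given CAF.CM were the high ones. Snhg12, at chr4:132308623-132311024 (+), had 23.8 CPM in CAF.CM+Wnt2 Ab, 20.5 CPM in CAF.CM, 8.15 CPM in Wnt2 and 9.13 CPM in control. The log2 ratios of CAF.CM against control were 1.53 (1.41 to 1.65) for Snhg6, 2.02 (1.89 to 2.15) for Epb41l4aos and 1.17 (1.02 to 1.32) for Snhg12.

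The other members of that group did not all go the same way. Snhg20 had 17.9 CPM in CAF.CM+Wnt2 Ab, 12.5 CPM in CAF.CM, 8.99 CPM in Wnt2 and 11.9 CPM in control, a log2 ratio of 0.07 for CAF.CM against control. Dancr had 1.16, 2.00, 0.664 and 1.22 CPM in CAF.CM+Wnt2 Ab, CAF.CM, Wnt2 and control, with 27 reads in CAF.CM+Wnt2 Ab and 52 in CAF.CM, so its values are imprecise. The whole list of 22 RNAs also holds Rmrp and Terc, the RNAs of RNase MRP and telomerase, which are not snoRNA hosts; 16 of the 22, Rmrp among them, were in all 3 tables, and 5 of these were members. With CAF.CM, 5 of the 16 were higher by 2-fold and 0 lower, beside 5.28% and 6.67% of all genes listed in all 3 tables. The median log2 ratio was 0.71, against −0.041 over those genes. Besides the members Epb41l4aos, Snhg6 and Snhg12 these were Zfas1 (2.12) and Snhg5 (1.17), Snhg14 was lowest at −0.51, and Snhg17 (−0.36) and Rmrp (−0.08), named after their values were seen, were also below 0. For Wnt2 the median was −0.18 with 0 past 2-fold, Snhg15 (0.34) and Dancr (−0.86) being the extremes. For CAF.CM+Wnt2 Ab against CAF.CM it was 0.098 with 0 past 2-fold, Snhg1 (0.67) and Dancr (−0.74) being the extremes. Of all genes listed in all 3 tables, 2.47% were higher and 2.34% lower with Wnt2, and 0.521% and 3.42% in this last comparison.

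The machinery around these hosts showed no gene past 2-fold in any comparison: 0 of 12 snoRNP proteins, 0 of 19 nuclear RNA exosome genes and 0 of 14 nonsense-mediated decay genes. Of all genes listed in all 3 tables, 2.47% were higher and 2.34% lower with Wnt2, and 5.28% and 6.67% with CAF.CM. The shares were 0.521% and 3.42% in CAF.CM+Wnt2 Ab against CAF.CM. With such small shares, 0 in a list of this size says little. Spliced snoRNA hosts are known targets of nonsense-mediated decay. With CAF.CM the extremes were Nufip1 (0.55) and Nop58 (−0.62) among snoRNP genes, Exosc7 (0.54) and Ncbp2 (−0.97) among exosome genes, and Upf3b (0.44) and Smg6 (−0.71) among decay genes. The Wnt2 extremes were Nufip1 (0.05) and Nop58 (−0.57), Exosc7 (0.46) and Exosc2 (−0.36), and Upf2 (0.56) and Magoh (−0.20). For CAF.CM+Wnt2 Ab against CAF.CM they were Nufip1 (0.25) and Gar1 (−0.55) among snoRNP genes and Exosc7 (0.47) and Exosc10 (−0.18) among exosome genes, and the lowest decay gene was Upf3a (−0.08).

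**Figure D2:**
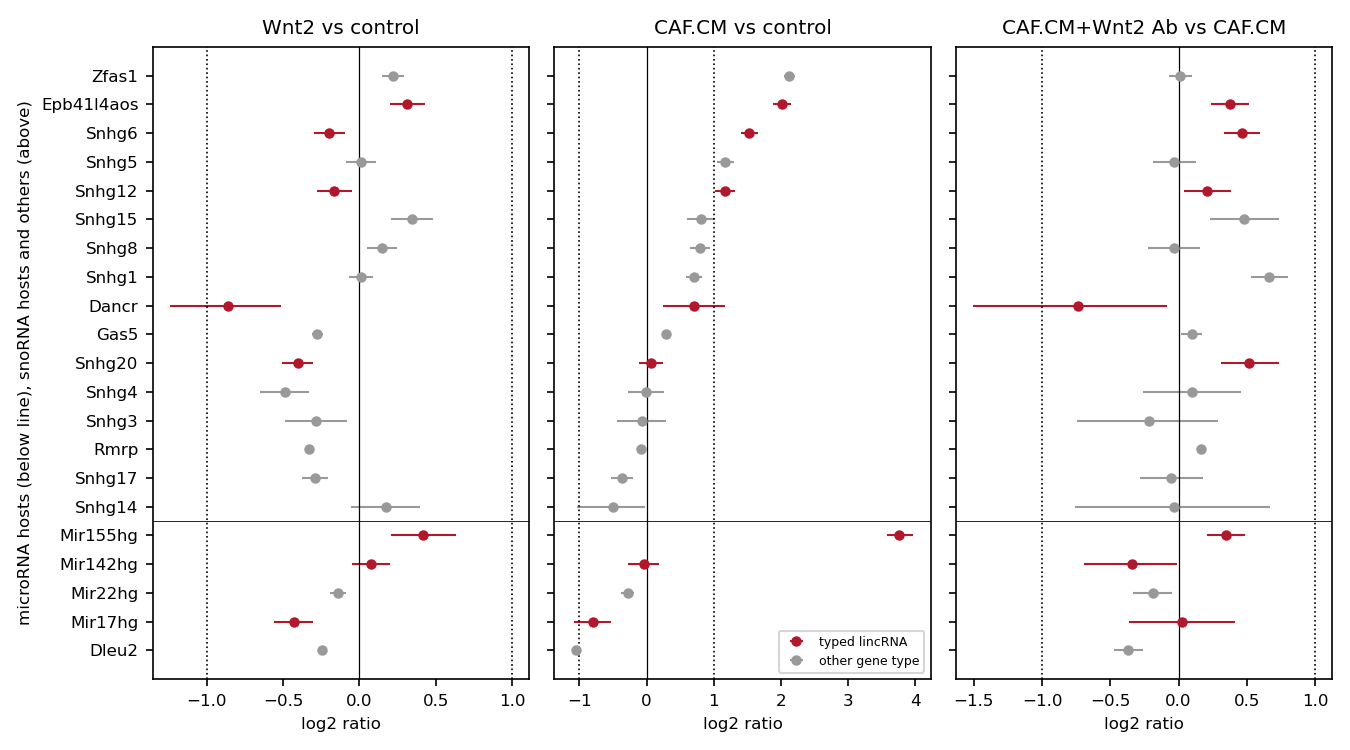
Log2 ratio of each RNA of the snoRNA host list (above the line) and each microRNA host (below it) in the 3 comparisons, with 95% counting intervals. Rmrp, which is not a snoRNA host, is among those above the line. Dotted lines mark 2-fold, and red points are genes typed lincRNA. In the CAF.CM panel Mir155hg lies at 3.76 and 5 snoRNA hosts lie beyond the right dotted line, while in the Wnt2 panel no point passes either line.

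RNAs described in immune cells included the most abundant clone-named member. AW112010, a transcript induced by inflammatory signals in mouse macrophages, lies at chr19:11047612-11055808 (−). It had 114 CPM in CAF.CM+Wnt2 Ab, 128 CPM in CAF.CM, 34.4 CPM in Wnt2 and 26.2 CPM in control, so the libraries given CAF.CM were again the high ones. Its log2 ratio was 2.29 (2.22 to 2.35) for CAF.CM against control, 0.39 for Wnt2 against control and −0.16 for CAF.CM+Wnt2 Ab against CAF.CM. The nearest listed gene, Ms4a8a, had −0.89, −1.87 and 0.15 in that order. Its level was low, at 1.12 CPM in CAF.CM+Wnt2 Ab, 0.999 CPM in CAF.CM, 0.501 CPM in Wnt2 and 1.87 CPM in control. In the list of 16, 8 were in all 3 tables and 5 were members.

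With CAF.CM 3 of the 8 were higher by 2-fold (Mirt2 at 3.82, Mir155hg and AW112010) and 1 lower (F630028O10Rik at −3.32), beside 5.28% and 6.67% of all genes listed in all 3 tables, with a median of 0.83. With Wnt2 2 were higher, Mirt2 at 2.64 and Wfdc21 at 1.54, and 0 lower, beside 2.47% and 2.34% of all those genes. The median was 0.42, and Neat1 was the lowest at 0.18. For CAF.CM+Wnt2 Ab against CAF.CM 0 of the 8 were higher and 1 was lower, F630028O10Rik at −2.40, beside 0.521% and 3.42%. The median was −0.16, and Neat1 was the highest. Mirt2, Wfdc21 and F630028O10Rik carry another gene type in the files and are not among the 245. Mirt1, a member first named in a heart infarction study in mice, had 2.84, 3.73, 2.88 and 2.22 CPM in CAF.CM+Wnt2 Ab, CAF.CM, Wnt2 and control, and was within 2-fold throughout.

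Trp53cor1, Lncpint and Pvt1 stayed within 2-fold in all 3 comparisons. Trp53cor1, known as lincRNA-p21 and induced by p53, had 4.96 CPM in CAF.CM+Wnt2 Ab, 4.99 CPM in CAF.CM, 3.53 CPM in Wnt2 and 2.61 CPM in control. Its CAF.CM log2 ratio was 0.93 (0.63 to 1.23). Cdkn1a, a cell cycle inhibitor and p53 target 11797 bases away, had 1.08 there, and 48.7% of the 31-base words of Trp53cor1 occur in other genes. Lncpint had 17.8 CPM in CAF.CM+Wnt2 Ab, 11.8 CPM in CAF.CM, 9.98 CPM in Wnt2 and 8.76 CPM in control, highest where the antibody was present. Pvt1, a neighbour of the growth regulator Myc at a distance of 47612 bases, had 8.40 CPM in CAF.CM+Wnt2 Ab, 6.34 CPM in CAF.CM, 5.03 CPM in Wnt2 and 9.08 CPM in control. Its log2 ratios were −0.85 with Wnt2, −0.52 with CAF.CM and 0.40 with the antibody added to CAF.CM, and those of Myc were −1.22, −2.08 and −0.48. Myc had only 0.776 CPM in CAF.CM+Wnt2 Ab and 1.11 CPM in CAF.CM, so its last ratio is imprecise.

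Among the remaining named members, 1 was past 2-fold. Prr33, a name that stands for a proline-rich protein, had 2.24 CPM in CAF.CM+Wnt2 Ab, 2.42 CPM in CAF.CM, 4.76 CPM in Wnt2 and 5.67 CPM in control. It was low in both libraries given CAF.CM, with a CAF.CM log2 ratio of −1.22 (−1.62 to −0.86). Gdap10, inside Nampt, had 74.5 CPM in CAF.CM+Wnt2 Ab, 59.0 CPM in CAF.CM, 54.3 CPM in Wnt2 and 31.3 CPM in control, and was lowest in control, with log2 ratios of 0.92 for CAF.CM and 0.79 for Wnt2. Dubr, studied in mouse muscle cells, had 13.2 CPM in CAF.CM+Wnt2 Ab, 16.6 CPM in CAF.CM, 29.9 CPM in Wnt2 and 24.1 CPM in control, and was low in the libraries given CAF.CM. The pseudogene-named Gpr137b-ps (14.5, 11.6, 13.3 and 14.5 CPM), Ino80dos (2.16, 2.23, 2.12 and 2.19 CPM) and Fam120aos (1.85, 1.65, 2.05 and 2.35 CPM in CAF.CM+Wnt2 Ab, CAF.CM, Wnt2 and control) stayed within 2-fold in all 3 comparisons.

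As a group, of the 23 named lincRNAs 4 were higher by 2-fold with CAF.CM and 1 was lower (median 0.23), beside 5.28% and 6.67% of all genes listed in all 3 tables, and 0 were past 2-fold in the Wnt2 and antibody comparisons, whose medians were −0.05 and 0.16. The 15 members named only by a clone or accession had 1 higher (6.67%) and 2 lower (13.3%) with CAF.CM and 0 past 2-fold with Wnt2. In CAF.CM+Wnt2 Ab against CAF.CM they had 0 higher and 2 lower. Of all genes listed in all 3 tables, 2.47% were higher and 2.34% lower with Wnt2, and 0.521% and 3.42% in this last comparison.

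Per kilobase of the longest transcript, which allows genes to be compared, Malat1 was first with 5425 CPM per kb in CAF.CM+Wnt2 Ab, 3957 in CAF.CM, 2534 in Wnt2 and 1990 in control. Gm26917 followed with 1116, 817, 543 and 712 CPM per kb in that order of libraries. The members that follow are examples, not the next in rank, and Gm26870 is not among them. AW112010 had 148, 166, 44.7 and 34.03 CPM per kb, and Neat1, the longest transcript of the class at 20771 bases, had 166, 97.9, 86.3 and 76.4 CPM per kb. Epb41l4aos had 92.5, 71.2, 21.8 and 17.5 CPM per kb, above Xist at 31.5, 28.3, 28.7 and 30.8 CPM per kb in the libraries given CAF.CM and below it in Wnt2 and control.

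The class took a larger share of reads in the libraries given CAF.CM, mostly through its most abundant members. lincRNAs held 4.98% of reads in CAF.CM+Wnt2 Ab, 3.66% in CAF.CM, 2.39% in Wnt2 and 2.07% in control. Malat1 alone held 3.86%, 2.86%, 1.76% and 1.38%, and it made up 77.5%, 78.0%, 73.7% and 66.7% of the lincRNA reads. Without it the shares were 1.12% in CAF.CM+Wnt2 Ab, 0.807% in CAF.CM, 0.628% in Wnt2 and 0.689% in control, so Wnt2 then lay below control. Without Malat1 and the 3 genes with repeat or ribosomal sequence described next, they were 0.613%, 0.464%, 0.416% and 0.384%. The 240 lincRNAs other than these and Neat1 held 0.261%, 0.254%, 0.238% and 0.227%, so their share differed little between libraries. The 5 members with most reads held between 91.7% and 95.1% of lincRNA reads in each library. The median member had 3.32 CPM in CAF.CM+Wnt2 Ab, 3.30 CPM in CAF.CM, 3.48 CPM in Wnt2 and 3.25 CPM in control, and 195 to 203 members were under 10 CPM.

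**Figure D3:**
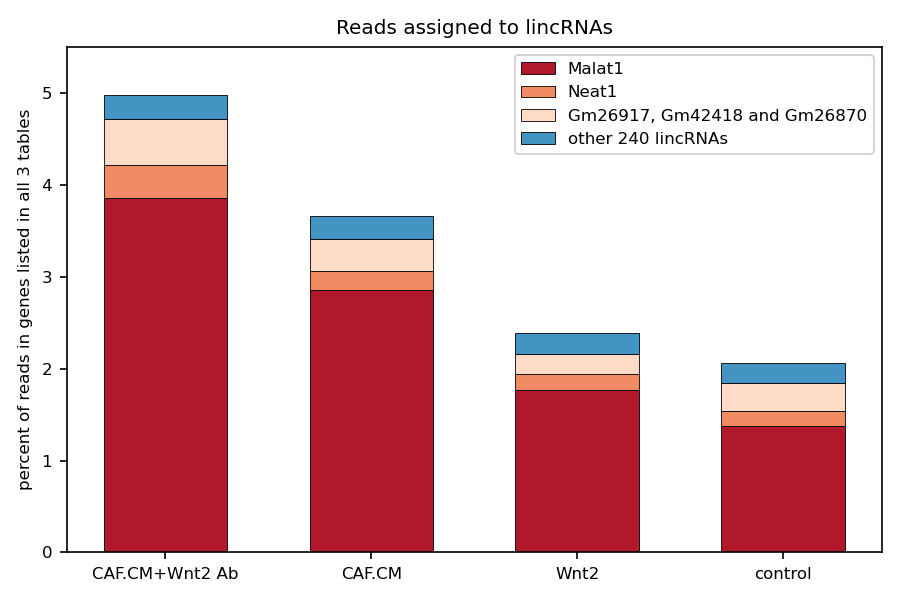
Percent of reads in genes listed in all 3 tables that fell on lincRNAs, stacked by part, 1 bar per library. The bars reach 4.98% in CAF.CM+Wnt2 Ab, 3.66% in CAF.CM, 2.39% in Wnt2 and 2.07% in control, and Malat1 fills most of each.

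The Gm26870 gene had the largest ratio of the class. It had 845 CPM in CAF.CM+Wnt2 Ab, 319 CPM in CAF.CM, 10.3 CPM in Wnt2 and 0.827 CPM in control, from 19605, 8303, 1587 and 117 reads. All 3 comparisons were past 2-fold, with log2 ratios of 3.62 (3.37 to 3.93) for Wnt2 against control, 8.55 (8.33 to 8.87) for CAF.CM against control and 1.41 (1.37 to 1.44) for CAF.CM+Wnt2 Ab against CAF.CM. The gene lies at chr9:3000282-3038313 (−), at the start of the assembled chromosome, and its transcripts repeat every 234 bases, at which lag 95.9%, 81.5% and 78.3% of bases are identical in its 3 transcripts. A unit of its annotated transcript is shown because it lets a reader see the repeat; capitals mark the bases that are the same in the next unit.
Gm26870 unit, bases 1 to 234 of the transcript: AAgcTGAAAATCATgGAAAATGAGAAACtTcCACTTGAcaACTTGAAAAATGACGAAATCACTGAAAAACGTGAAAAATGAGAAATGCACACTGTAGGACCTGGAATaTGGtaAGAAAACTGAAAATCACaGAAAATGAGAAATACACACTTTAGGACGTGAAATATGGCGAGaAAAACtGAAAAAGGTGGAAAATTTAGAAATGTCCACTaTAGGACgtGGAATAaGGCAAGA
Of the 234 bases 217 are in capitals. The major satellite of mouse centromeres is a tandem repeat of this kind. Of its 31-base words, 84.2% occur in 12 other genes, 11 of which are listed in a table as protein-coding, so reads could be shared among them. Chosen after their values were seen, Gm10800 had 378 CPM in CAF.CM+Wnt2 Ab, 132 CPM in CAF.CM, 6.495 CPM in Wnt2 and 0.636 CPM in control, and Gm10801 had 149, 61.9, 2.62 and 0.162 CPM in that order of libraries. These followed the same order as Gm26870, and the value of Gm26870 itself is uncertain for that reason.

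Gm26917 and Gm42418 are also uncertain. RefSeq (GRCm38.p6) lists Gm42418 as a name of Rn18s-rs5, a pseudogene entry for 18S ribosomal RNA at chr17:39846354-39848202, and the 2 overlap by 1245 bases, with Gm26917 13 bases beyond it. Gm26917 had 3715 CPM in CAF.CM+Wnt2 Ab, 2720 CPM in CAF.CM, 1808 CPM in Wnt2 and 2369 CPM in control. Gm42418 had 402 CPM in CAF.CM+Wnt2 Ab, 278 CPM in CAF.CM, 311 CPM in Wnt2 and 710 CPM in control, highest in control. Its log2 ratios were −1.19 for Wnt2 and −1.35 for CAF.CM, and libraries were depleted of ribosomal RNA. The part that residual ribosomal RNA has in these values was not tested.

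Genes named Gm or Rik made up 207 of the 245 (84.5%). By 2-fold, CAF.CM had 20 higher (9.66%) and 13 lower (6.28%), with a median of 0.15, beside 5.28% and 6.67% of all genes listed in all 3 tables. With Wnt2 6 were higher (2.90%) and 10 lower (4.83%), beside 2.47% and 2.34%. In CAF.CM+Wnt2 Ab against CAF.CM 2 were higher (0.966%) and 8 lower (3.86%), beside 0.521% and 3.42%. The lower share with CAF.CM and with the antibody and the higher share with Wnt2 were near the background. After Gm26870, the highest for CAF.CM among those with at least 200 reads were Gm26584 and B230303O12Rik. Gm26584, which overlaps Slc7a2 on the other strand, had 93.7 CPM in CAF.CM+Wnt2 Ab, 81.9 CPM in CAF.CM, 34.5 CPM in Wnt2 and 24.2 CPM in control, a log2 ratio of 1.76. B230303O12Rik had 3.40, 4.42, 2.13 and 1.36 CPM in the same order, a log2 ratio of 1.68.

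The lowest for CAF.CM were Gm26778, Gm45752 and 1700047M11Rik. Gm26778 had 4.18 CPM in CAF.CM+Wnt2 Ab, 7.76 CPM in CAF.CM, 22.01 CPM in Wnt2 and 36.6 CPM in control, a log2 ratio of −2.23, and shares 99.3% of its words with Kctd12 on the opposite strand. Gm45752 had 0.819, 1.42, 6.60 and 6.37 CPM, a log2 ratio of −2.14, and lies over Dpep2. 1700047M11Rik had 0.388 CPM in CAF.CM+Wnt2 Ab, 1.34 CPM in CAF.CM, 5.499 CPM in Wnt2 and 5.58 CPM in control, a log2 ratio of −2.03. In all 3 the libraries given CAF.CM were low.

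For Wnt2 the highest after Gm26870 were Gm26675 and 4833427F10Rik. Gm26675 had 0.474 CPM in CAF.CM+Wnt2 Ab, 1.96 CPM in CAF.CM, 2.21 CPM in Wnt2 and 0.304 CPM in control, a log2 ratio of 2.81, and shares 98.3% of its words with other genes, mostly Zfp597. 4833427F10Rik had 1.34, 1.11, 2.97 and 0.445 CPM, a log2 ratio of 2.70. The lowest were Gm44205 with 10.2, 8.87, 4.19 and 20.001 CPM (log2 ratio −2.25), A330074K22Rik with 4.83, 3.96, 0.547 and 1.82 CPM (−1.71) and 1110002J07Rik with 0.905, 1.65, 0.527 and 1.36 CPM (−1.34), each in the order CAF.CM+Wnt2 Ab, CAF.CM, Wnt2 and control. A330074K22Rik was lower with Wnt2 and higher with CAF.CM, at 1.11. Between the libraries given CAF.CM, Gm26870 was the only Gm or Rik gene with 200 reads that passed 2-fold, counting reads over both. Outside the naming rule and chosen after its values were seen, AI504432 had 8.40 CPM in CAF.CM+Wnt2 Ab, 20.5 CPM in CAF.CM, 40.5 CPM in Wnt2 and 25.2 CPM in control, a log2 ratio of −1.28, and its neighbour Kcna3, a potassium channel gene 1434 bases away, had −1.08.

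Across the class, CAF.CM gave the most genes past 2-fold. Against control, 25 of the 245 lincRNAs (10.2%) were higher and 16 (6.53%) lower, beside 5.28% higher and 6.67% lower of all genes listed in all 3 tables, and 6.68% and 8.69% of all genes of that table. For Wnt2, 6 (2.45%) were higher and 10 (4.08%) lower, beside 2.47% and 2.34% of genes listed in all 3 tables and 2.87% and 2.93% of all genes of the table. For CAF.CM+Wnt2 Ab against CAF.CM, 2 (0.816%) were higher and 10 (4.08%) lower, beside 0.521% and 3.42% of genes listed in all 3 tables and 1.02% and 3.65% of all genes of the table. The lower counts for CAF.CM and for the antibody comparison were thus near the background, as was the higher count for Wnt2. Counting intervals lay wholly beyond 2-fold for 14 of the 25 higher and 6 of the 16 lower with CAF.CM. Over all genes listed in all 3 tables this held for 477 of 659 higher and 576 of 832 lower. A smaller part of the lincRNA calls was thus clear of counting error. The lincRNAs and all genes were not matched for level.

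The median log2 ratio of the 245 was 0.086 with Wnt2, 0.15 with CAF.CM and −0.017 with the antibody added to CAF.CM, beside −0.022, −0.041 and −0.041 over all genes listed in all 3 tables. Other gene types differed among themselves with CAF.CM: 18 of 225 antisense genes, 9.82% of 163 processed transcripts, 18.5% of 92 processed pseudogenes and 4.73% of 507 TEC genes (to be experimentally checked) were higher by 2-fold, against 4.81% of 11008 protein-coding genes. In 193 of the 245 lincRNAs no comparison passed 2-fold, and 19 were higher with CAF.CM and within 2-fold in the other comparisons. Of 193 spliced members 25 were higher and 11 lower with CAF.CM, against 0 and 5 of 49 single-exon members.

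**Figure D4:**
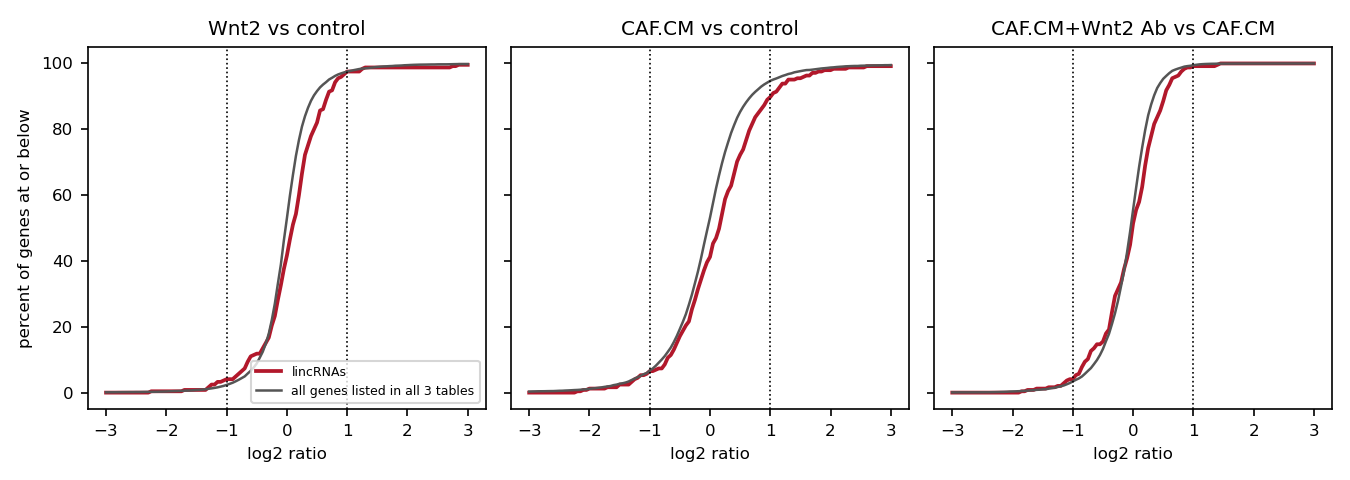
Cumulative percent of genes at or below each log2 ratio in the 3 comparisons, for 245 lincRNAs (red) and 12473 genes listed in all 3 tables (grey); dotted lines mark 2-fold. In the CAF.CM panel the red line lies right of the grey one at the median, 0.15 against −0.041.

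Many members overlap other genes. Exons of 105 lie over a gene on the opposite strand, 15 over one on the same strand only and 122 over no other gene. The sources used here do not say whether counting used strand, so reads of a gene and its antisense partner cannot be told apart. With CAF.CM, 11 of the 122 that overlap nothing (9.02%) were higher by 2-fold and 9 (7.38%) were lower. For the 105 with an antisense partner the counts were 11 (10.5%) and 6 (5.71%). The shares over all genes listed in all 3 tables were 5.28% and 6.67%. Both sets thus had similar shares, and their lower shares were near the background. Their median log2 ratios were 0.054 and 0.23.

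The nearest protein-coding gene listed in all 3 tables was found for 242 members, at a median distance of 518.5 bases. The Pearson correlation of log2 ratios over these pairs was 0.41 with Wnt2 and 0.35 with CAF.CM, and 0.44 between the libraries given CAF.CM, as a description, since pairs share libraries and 93 pairs overlap. For the 83 pairs over 5000 bases apart it was 0.42, 0.27 and 0.34. With CAF.CM both genes were higher in 6 pairs and both lower in 5, and in 0 pairs did they go past 2-fold in opposite directions. Prr33 and Lsp1, a leukocyte actin-binding protein gene, both had a log2 ratio of −1.22, and Gm26778 and Kctd12 had −2.23 and −2.36. Gm45752 and Dpep2 had −2.14 and −2.03. 4833427F10Rik and Ier3, an immediate early gene 40997 bases away, had 2.70 and 2.15 for Wnt2 and 1.28 and 1.16 for CAF.CM.

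The nearest listed protein-coding genes of other named members stayed within 2-fold with CAF.CM, at distances that ranged widely. Those that overlap the lincRNA were Mcmdc2 at Snhg6 (−0.11), Nampt at Gdap10 (0.33) and Ino80d at Ino80dos (−0.52). Within 5000 bases were Frmd8 from Neat1 (−0.51), Trnau1ap from Snhg12 (−0.03), Ero1lb from Gpr137b-ps (−0.17), Tspoap1 from Mir142hg (0.89) and Fam120a from Fam120aos (−0.24). Sec14l1 was 36213 bases from Snhg20 (0.21), Usp46 24629 bases from Dancr (0.44) and Smndc1 52652 bases from Mirt1 (0.27). Farther off, and so not neighbours in a close sense, were Mkln1 at 178247 bases from Lncpint (0.06), Bbx at 286904 bases from Dubr (0.15), Apc at 424938 bases from Epb41l4aos (−0.48) and Tgds at 3065184 bases from Mir17hg (0.11). Rlim (0.14) was 473909, 333373 and 391467 bases from Xist, Ftx and Jpx.

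For the Gm and Rik genes described above, the overlapping genes were Slc7a2 at Gm26584 (0.93), Gm20388 at A330074K22Rik (0.19) and Zfp597 at Gm26675 (−0.37). Degs1 was 5186 bases from 1700047M11Rik (−0.65), Rnf6 14383 bases from B230303O12Rik (−0.24), Plxna1 30589 bases from Gm44205 (−0.65) and Reep3 88931 bases from 1110002J07Rik (−0.97). Alkbh8 was 296827 bases from Gm26870 (0.13), and 9130008F23Rik (0.19) was 1029141 bases from Gm26917 and 1026694 bases from Gm42418.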

How the data were processed

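Dendritic cell RNA was sequenced after ribosomal RNA depletion, with 1 library per group. The series text speaks of triplicates, and the sources used here do not say whether a column pools several. The deposited values are CPM, not logged, with 3 decimals, which the authors scaled by effective library sizes. Their tables also hold log2 fold changes and p-values by the authors, and the deposited p-values were not used here. The submitters' processing notes name the tools RSEM 1.2.29, STAR 2.4.2a and edgeR and the builds mm10 and GRCm38.p5, without settings, and do not say if strand was used in counting. Values were whole multiples of 1 read (within 0.1 of a step) for 99.89% to 100% of genes, which gave the reads per gene. Each table lists genes whose higher value is at least about 1 CPM, so members passed that filter in every comparison.

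Log2 ratios were computed with 2 reads added, with exact conditional binomial 95% intervals, and shares with exact binomial ones; both cover counting error only. With 1 library per group no p-value was computed. GENCODE M21 (mm10) matched 242 of 245 members. It types 210 of them as lincRNA, 19 as antisense, 6 as bidirectional promoter RNA and 5 as processed transcript. The rest are 1 unprocessed pseudogene and 1 transcribed unprocessed pseudogene. Words of 31 bases were compared between annotated transcripts. Python 3.11.15, numpy 2.4.6, pandas 2.3.3, scipy 1.17.1 and matplotlib 3.10.9 were used, and the ratio step was tested on simulated data. Size factors as an alternative were computed as medians of ratios to the geometric mean. Other scalings, thresholds, read minimums and member sets were tried.

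The members and lists were chosen with earlier results of these data known. Named genes are all 23 members with a name, the 3 highest and 3 lowest Gm or Rik genes per comparison with at least 200 reads and past 2-fold, the 5 with most reads, the nearest protein-coding gene of each, and the extremes of each list; a few genes that this rule would name are not reported here. Among the marker lists, the highest and lowest for CAF.CM were Irf4 (0.91) and Itgax (−4.22) for dendritic cells, Ly6c2 (2.24) and Ccr2 (−4.95) for macrophages, and Dcn (4.33) and Pdgfrb (0.07) for fibroblasts, with S100a8 (−0.17) for neutrophils.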

Additional observations from a re-analysis of the deposited data

How the results depend on the processing

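No paired analysis was possible because each group has 1 library. Counts past a threshold moved most with its size: at 1.5-fold, 34 lincRNAs were higher and 27 lower for Wnt2, 59 and 34 for CAF.CM, and 18 and 36 for CAF.CM+Wnt2 Ab against CAF.CM. With all lincRNAs of a comparison's own table, 16 were higher and 14 lower for Wnt2, 36 and 34 for CAF.CM, and 9 and 15 for CAF.CM+Wnt2 Ab against CAF.CM. Of all genes of those tables, 2.87% were higher and 2.93% lower for Wnt2, and 6.68% and 8.69% for CAF.CM. For CAF.CM+Wnt2 Ab against CAF.CM the shares were 1.02% and 3.65%. No share over all genes is given at 1.5-fold, so those counts are not set against a background. With at least 100 reads over both libraries, 1 was higher and 4 were lower for CAF.CM+Wnt2 Ab. Without members sharing over 50% of their words, an alternative chosen after seeing the data, 5 were lower for Wnt2, 10 lower for CAF.CM and 1 higher for CAF.CM+Wnt2 Ab. Of the 207 annotated members sharing 50% or less, these were 2.4%, 4.83% and 0.483%. Of the 35 sharing more, 5 (14.3%), 6 (17.1%) and 1 (2.86%) were called in the same order. Of all genes listed in all 3 tables the shares were 2.34%, 6.67% and 0.521%. The lower count for Wnt2 thus lay near the background without the 35. The share of reads in lincRNAs, in CAF.CM+Wnt2 Ab, CAF.CM, Wnt2 and control, was 1.12%, 0.807%, 0.628% and 0.689% without Malat1, and 6.41%, 4.61%, 2.93% and 2.50% without mitochondrial and small structural RNA genes. Over all reads in any table it was 2.39% in Wnt2 and 2.06% in control. Without Gm26870, Gm26917 and Gm42418 it was 4.47%, 3.32%, 2.18% and 1.76%, and without these and Malat1 0.613%, 0.464%, 0.416% and 0.384%; both were added after seeing the data. Of 345 alternative values of the 69 named ratios, 331 stayed within the counting interval, and 2 changed side of 2-fold, both for Malat1 with CAF.CM. A change of sign was looked for only in named ratios past 2-fold, and 0 were found there. Other scalings moved the median of all genes by at most 0.061 on the log2 scale. The deposited log2 fold changes in the authors' deposited table give 6 higher and 10 lower for Wnt2, 25 and 16 for CAF.CM, and 3 and 14 for CAF.CM+Wnt2 Ab against CAF.CM. The cause of these differences was not tested. Precision is limited by 1 library per group and by the shallow conditioned-medium libraries.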

Other observations

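Another 79 genes typed lincRNA were listed in 1 or 2 of the 3 tables. They passed the filter on low values only in some libraries, so a count of those past 2-fold is shaped by that selection. Of these, 29 were in the Wnt2 and CAF.CM tables, 22 in the CAF.CM and CAF.CM+Wnt2 Ab tables, 16 in the CAF.CM+Wnt2 Ab table alone, 10 in the Wnt2 table alone and 2 in the Wnt2 and CAF.CM+Wnt2 Ab tables. For CAF.CM against control, 11 of 51 were higher by 2-fold and 18 lower, beside 27.1% and 38.1% of all 856 genes of that table that are not in all 3 tables. For Wnt2, 10 of 41 were higher and 4 lower, beside 10.5% and 14.4% of 647 such genes. For CAF.CM+Wnt2 Ab against CAF.CM, 7 of 40 were higher and 5 lower, beside 11.4% and 8.51% of 599.

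Chosen after their values were seen, Gm26825 had 7.57 CPM in CAF.CM and 0.968 CPM in control, and 5.56 CPM in CAF.CM+Wnt2 Ab. Gm26735 had 4.63 CPM in Wnt2 and 0.954 CPM in control. Gm26719 had 1.15 CPM in Wnt2 and 0.155 CPM in control. Gm37168 went the other way, with 0.499 CPM in CAF.CM, 0.495 CPM in Wnt2 and 3.51 CPM in control. Ptgs2os2, named for its place beside the prostaglandin synthase gene Ptgs2, had 1.34 CPM in CAF.CM+Wnt2 Ab and 0.691 CPM in CAF.CM, from 31 and 18 reads.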
